A study of Bos taurus with 16 samples.

Results

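Glycogen is the branched glucose store of liver. Phosphorylase kinase, activated by glucagon signaling and calcium, switches on glycogen phosphorylase, which releases glucose units from the chains. The kinase holds a catalytic gamma subunit and regulatory subunits, alpha and beta among them, and alpha, gamma, phosphorylase and glycogen synthase each exist in a liver and a muscle form encoded by separate genes. Synthesis runs the other way: phosphoglucomutase and UDP-glucose pyrophosphorylase supply UDP-glucose, glycogen synthase lengthens the chains and the branching enzyme adds branch points.

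The 9 genes described here were the kinase genes PHKA1, PHKA2, PHKB and PHKG2 and the enzyme genes PYGL, GYS2, GBE1, UGP2 and PGM1. Each was matched by 1 of the 26773 transcript clusters of the bovine gene array, taken where the array annotation gave that symbol and no other. These clusters were 12902685 (PHKA1), 12904175 (PHKA2), 12751064 (PHKB), 12812393 (PHKG2), 12693905 (PYGL), 12861425 (GYS2), 12686922 (GBE1), 12698474 (UGP2) and 12846391 (PGM1).

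Liver was taken from 16 crossbred steers, 4 of each phenotype. The first pair of groups had high gain, with high intake (high gain-high intake) or low intake (high gain-low intake), and the other pair had low gain (low gain-high intake, and likewise low gain-low intake). All were under 1 year old when the trial began and ate 1 high-concentrate diet containing WDGS, wet distillers grains with solubles, over 78 days. They were picked mainly for lying far from the herd's average in gain and intake, with health and breed also weighed. The groups are thus phenotypes of mixed breeds and not treatments. Breed shares differed between them: the paper lists Brahman and Santa Gertrudis for low gain-high intake alone, and Brown Swiss for low gain-low intake alone. The part of breed was not tested. Each steer has 1 array, and steers are numbered within a group only to name them. Values are log2 array values. An effect is a difference of group means: high minus low gain for the gain effect, and high minus low intake for that of intake. The interaction is the intake difference at high gain minus the one at low gain.

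The arrays fell into 2 sets of 8, split at the widest gap between array medians (7.41 to 7.47 in set 1, 7.16 to 7.28 in set 2), with 3 high gain and 5 low gain steers in set 1 and 5 high gain and 3 low gain steers in set 2. The high gain-high intake steers of set 1 and the low gain-low intake steers of set 2 number 1 each. No label names these sets, and effects within them, from means of 1 to 3 steers, stand beside the pooled ones. Of 11 hepatocyte markers, 10 lay in the top 1% of every array, and APOA1 was the exception. In whole liver, fewer cells of a type and less RNA per cell cannot be told apart.

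PHKA1, the muscle form of the alpha subunit, had lower values in the high gain steers. Its values were 7.61, 7.46, 7.54 and 7.46 in the high gain-high intake steers and 7.74, 7.35, 7.50 and 7.28 in the high gain-low intake steers. They were 7.77, 7.91, 8.08 and 7.97 in the low gain-high intake steers and 8.10, 7.68, 7.67 and 7.50 in the low gain-low intake steers. All 4 low gain-high intake steers thus lay above all 8 high gain steers, whereas the low gain-low intake steers overlapped with them. A lack of overlap was found in 1.51% of all transcript clusters for high intake steers of high and low gain, and in 1.84% for high gain-low intake against low gain-high intake steers. PHKA1 was known to differ between the groups when the 9 genes were chosen, so that its pattern is given as a description. Its gain effect was -0.34 (standard error 0.11), and -0.25 and -0.32 within array sets 1 and 2.

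In the order of means, low gain-high intake came first for PHKA1 (7.93 ± 0.13), followed by low gain-low intake (7.74 ± 0.26), then high gain-high intake (7.51 ± 0.07) and last high gain-low intake (7.47 ± 0.20), each as mean ± SD of 4 steers. Steers overlapped between each pair of neighbours in this order. The spread within the high gain-high intake group was the narrowest of the 4. The intake effect was 0.12 (standard error 0.11) and the interaction -0.15 (standard error 0.23). The PHKA1 signal lay between the 47.5th and the 63.7th percentile of its array, near the middle of all transcript clusters.

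A gene is called here at a limma p, before adjustment, of at most 0.05. Over the 4 groups 1 of the 9 genes was called, PHKA1, beside 2.33% of all transcript clusters. For gain it was again PHKA1 alone, beside 3.48% of all clusters, and for the interaction GBE1 alone, beside 2.81%. For intake 0 of 9 were called, beside 2.86%. A single gene of 9 does not set the 9 genes apart from the rest of the array. No adjusted p of the 9 genes was below 0.998 in limma, and 0 of 26773 transcript clusters passed the correction in any of the 4 comparisons. The unadjusted p of PHKA1 over the 4 groups was 0.0377. It exceeded 0.05, at 0.0531 to 0.0992, when any 1 of 9 steers was left out, namely steers 2, 3 and 4 of every group but low gain-low intake. None of the 9 genes was called over the 4 groups after subtracting array medians, beside 2.74% of all clusters, or among clusters at or above the median level, beside 2.05%.

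**Figure D1:**
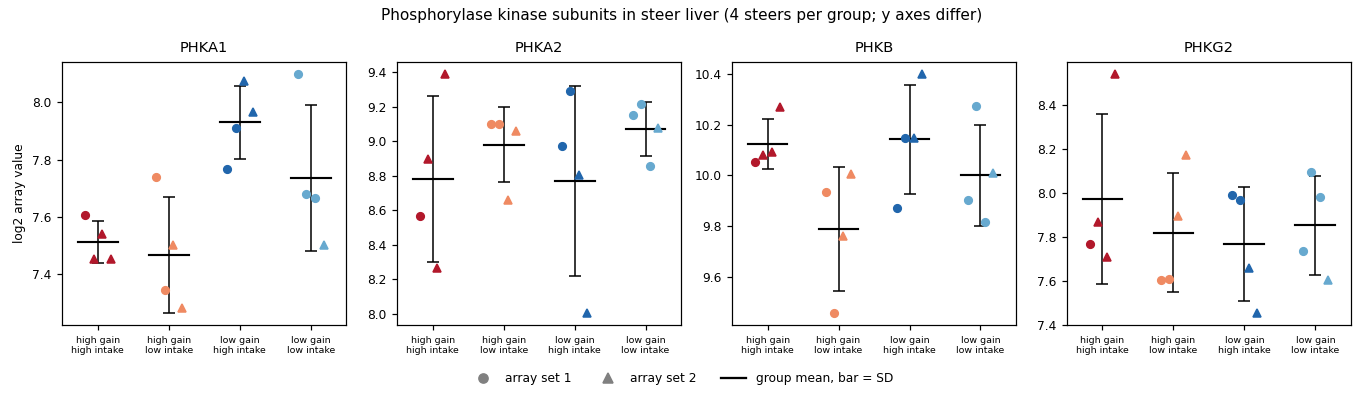
Log2 array values of the 4 phosphorylase kinase genes in each steer, by phenotype group, with the mean and SD of the 4 steers and the array set as the symbol; the y axes differ. The low gain-high intake steers lie at 7.77 to 8.08 for PHKA1, above all high gain steers (7.28 to 7.74), and no such separation by gain is seen for PHKA2, PHKB or PHKG2.

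PHKA2, the liver form of the alpha subunit, did not separate the groups. Its values were 8.57, 8.89, 8.27 and 9.39 among high gain-high intake steers and 9.10, 9.10, 8.66 and 9.06 in the high gain-low intake steers. It was 8.97, 9.29, 8.80 and 8.005 in the low gain-high intake steers and 9.15, 9.21, 8.85 and 9.08 in the low gain-low intake steers. The widest spread was in the 2 high intake groups (SD 0.48 and 0.55), and the 2 low intake groups were tighter (SD 0.21 and 0.16). The gain effect of PHKA2 was -0.04 (95% confidence interval -0.44 to 0.36), -0.27 within array set 1 and 0.11 within set 2. This interval holds the effect of PHKA1, so that a difference of that size was neither shown nor excluded for PHKA2.

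PHKB, the beta subunit shared by the liver and muscle enzymes, had its lowest values at high gain and low intake. The high gain-high intake steers had 10.05, 10.08, 10.09 and 10.27, and the high gain-low intake steers 9.93, 9.46, 9.76 and 10.01. The low gain-high intake steers had 9.87, 10.15, 10.15 and 10.40, and the low gain-low intake steers 9.90, 10.27, 9.82 and 10.01. At high gain the high and low intake steers did not overlap, which held for 1.54% of all transcript clusters and, among the 9 genes, for PHKB alone. The intake effect was 0.24 (standard error 0.12), and 0.19 and 0.27 within array sets 1 and 2. Its exact permutation p was 0.0286 (two-sided, 8 steers against 8), while limma gave an unadjusted p of 0.0628 and an adjusted p of 0.998. With an ordinary t for intake, without moderation, PHKB was called, as were 2.98% of all clusters. In limma it was called without low gain-high intake steer 1 (0.0331), low gain-low intake steer 2 (0.0339) or high gain-low intake steer 4 (0.0419). The gain effect of PHKB was -0.12 (95% confidence interval -0.37 to 0.14).

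PHKG2, the catalytic subunit of the liver kinase, had values of 7.77, 7.87, 7.71 and 8.54 among high gain-high intake steers and 7.60, 7.61, 7.89 and 8.17 in the high gain-low intake steers. It was 7.99, 7.96, 7.66 and 7.45 in the low gain-high intake steers and 7.73, 8.10, 7.98 and 7.60 in the low gain-low intake steers. The groups overlapped throughout. The gain effect was 0.09 (95% confidence interval -0.24 to 0.41), -0.27 within array set 1 and 0.46 within set 2. PHKG1, the muscle form of the catalytic subunit and not among the 9 genes, lay between the 9.86th and the 36.8th percentile of its array. The gain effect of PHKG1 was -0.11 (unadjusted p = 0.531 in limma).

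Whether the other genes follow PHKA1 from steer to steer was asked over all 16 steers. Pearson's r with PHKA1 was -0.139 for PHKA2, 0.330 for PHKB and -0.352 for PHKG2, with Spearman's rho of -0.0545, 0.241 and -0.260. None of these was distinguishable from 0 (permutation p = 0.612, 0.213 and 0.183 for r, and 0.841, 0.365 and 0.327 for rho). Without the 2 steers farthest from the PHKA1 median the r values were -0.267, 0.439 and -0.281. PHKB had the same sign in both array sets (r = 0.485 in set 1 and 0.499 in set 2). PHKA2 (0.343 and -0.522) and PHKG2 (0.219 and -0.613) had opposite signs in them. After centring within phenotype groups, r was -0.136 for PHKA2, 0.0926 for PHKB and -0.355 for PHKG2.

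Among the enzymes, r with PHKA1 was 0.161 for PYGL, 0.143 for GYS2, -0.287 for GBE1, 0.358 for UGP2 and -0.477 for PGM1. The rho values were 0.264, 0.0721, -0.191, 0.374 and -0.512 in the same order. The permutation p for r was 0.550, 0.599, 0.286, 0.172 and 0.0619, and for rho 0.318, 0.792, 0.476, 0.153 and 0.0453. After Benjamini-Hochberg adjustment over the 8 relations the lowest p was 0.425 for r and 0.362 for rho. PGM1, with the strongest relation, had a weaker r of -0.355 after median subtraction and of -0.197 after quantile normalization. In the deposited values it kept an r of -0.458 without the 2 farthest steers and had -0.564 and -0.461 within array sets 1 and 2. Its permutation p for r was at most 0.05 without high gain-high intake steer 3 (0.0113), low gain-high intake steer 2 (0.0326) or low gain-high intake steer 3 (0.0384).

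The same check left r at 0.0152 for PYGL, -0.115 for GYS2, -0.345 for GBE1 and 0.0196 for UGP2. Within array sets 1 and 2 it was 0.418 and -0.381 for PYGL, -0.132 and 0.185 for GYS2, 0.176 and -0.803 for GBE1, and -0.195 and 0.661 for UGP2. These 4 enzymes thus had opposite signs in the sets. For UGP2, r was 0.689 (permutation p = 0.00448) without high gain-low intake steer 2. Of the 18789 other clusters with 1 symbol, 1.02% had a lower r with PHKA1 than PGM1, and 83.8% a lower one than PHKB. After centring within array sets these shares were 3.22% and 95.7%.

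**Figure D2:**
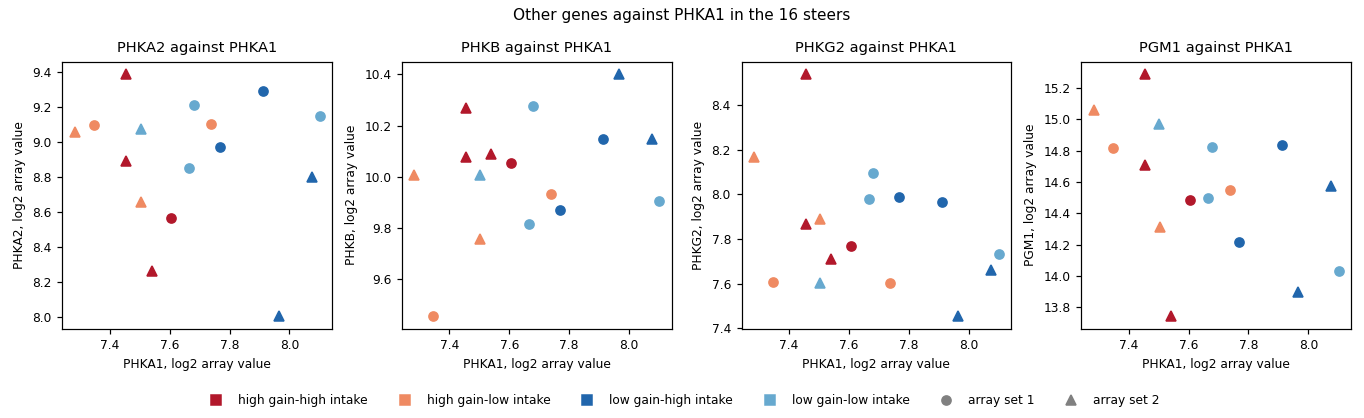
Log2 array values of PHKA2, PHKB, PHKG2 and PGM1 (y axes) against PHKA1 (x axis) in the 16 steers, with colour for the phenotype group and symbol for the array set. The points scatter without a clear line for PHKA2 (r = -0.139), and tilt loosely upward for PHKB (r = 0.330) and downward for PHKG2 (r = -0.352) and PGM1 (r = -0.477).

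Set beside PHKA1 in the same steers, the gain effect of PHKA1 minus that of the other gene was -0.30 (standard error 0.22) for PHKA2, -0.23 (standard error 0.13) for PHKB and -0.43 (standard error 0.20) for PHKG2. For the enzymes these differences ran from -0.64 (standard error 0.29) for GYS2 to -0.22 (standard error 0.23) for PYGL. They are a description, since PHKA1 was chosen with its gain effect known.

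The genes with the values most like PHKA1, after centring within array sets, were VWA1 (a matrix protein, r = 0.892), SPATA7 (a protein of cilia, r = 0.844), CASS4 (an adhesion scaffold protein, r = 0.834), FLACC1 (r = 0.820) and TRAPPC10 (a subunit of a vesicle tethering complex, r = 0.820). These are the 5 highest of 18789 clusters over 16 steers that share groups and arrays, and they are given with no test. From the values as deposited r was 0.735, 0.843, 0.505, 0.786 and 0.815 in that order. At high gain TRAPPC10 was 8.84 ± 0.17 with high and 8.95 ± 0.12 with low intake, against 9.35 ± 0.16 with high and 9.19 ± 0.33 with low intake at low gain (SD, n = 4). No gene of glycogen metabolism was among the 5.

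PYGL, the liver glycogen phosphorylase that the kinase activates, gave one of the strongest signals, above the 99.2nd percentile of every array. It ranged over 18.05 to 19.06 in high gain-high intake steers and 17.91 to 18.48 in high gain-low intake steers, against 17.45 to 18.74 in low gain-high intake steers and 18.01 to 18.96 in low gain-low intake steers. The gain effect was -0.13 (95% confidence interval -0.58 to 0.33) and the intake effect -0.12 (95% confidence interval -0.58 to 0.34). In the deposited values PYGL followed the array set, with all 8 arrays of set 2 (17.45 to 18.41) below all 8 of set 1 (18.43 to 19.06). The sets were themselves split by array medians, and the share of all clusters separated in this way was not counted. After median subtraction the sets overlapped, with PYGL up to 18.53 in set 2 and down to 18.31 in set 1. They also overlapped after quantile normalization (up to 18.99 in set 2, down to 18.02 in set 1). The gain effect was -0.02 and 0.21 within sets 1 and 2. The muscle form PYGM lay between the 6.38th and the 22.3rd percentile of its array.

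GYS2, the liver glycogen synthase, was the enzyme with the widest range in the high gain-high intake group. That group had 16.18, 15.32, 15.32 and 13.93, and the high gain-low intake group 15.37, 15.72, 15.33 and 15.45. The low gain-high intake group had 15.11, 15.24, 15.75 and 14.66, and the low gain-low intake group 15.66, 14.37, 15.33 and 14.13. The high gain-low intake steers were the tightest (SD 0.18, against 0.45 to 0.93 in the other groups). The gain effect was 0.29 (95% confidence interval -0.33 to 0.91), and 0.71 and 0.45 within array sets 1 and 2.

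GBE1, the branching enzyme, showed the largest interaction of the 9 genes. Its values were 12.35, 12.08, 11.97 and 12.61 among high gain-high intake steers and 11.89, 11.91, 11.70 and 12.29 in the high gain-low intake steers. It was 10.97, 12.66, 11.51 and 10.90 in the low gain-high intake steers and 12.30, 12.31, 12.43 and 12.07 in the low gain-low intake steers. In the low gain-high intake group 3 of 4 steers lay below every other steer, and steer 2 above every other. The means were 12.25 ± 0.29, 11.95 ± 0.25, 11.51 ± 0.82 and 12.28 ± 0.15 in this order of groups (SD, n = 4).

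At high gain the high intake mean of GBE1 exceeded the low intake mean by 0.30, and at low gain the low intake mean exceeded the high intake mean by 0.77. The interaction was 1.07 (standard error 0.43, unadjusted p = 0.0244 in limma, adjusted p = 1.00), with an exact permutation p of 0.0319. It was 0.98 and 1.09 within array sets 1 and 2. The unadjusted p exceeded 0.05 without low gain-high intake steer 1 (0.0567), low gain-high intake steer 4 (0.0563) or high gain-high intake steer 4 (0.0518). Without low gain-high intake steer 2 the interaction was 1.46, with an unadjusted p of 0.000161 and an adjusted p of 0.999 in limma, and GBE1 was then also called for gain (0.40) and intake (-0.42). The gain effect of GBE1 was 0.21 (95% confidence interval -0.25 to 0.66).

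Of 8 markers of Kupffer cells and macrophages, 1 was called for the interaction, MARCO, a scavenger receptor, at 1.58 (standard error 0.62), with its lowest mean in the low gain-high intake group (8.48 ± 0.22), as for GBE1. The lowest mean lay in that group for 2 of the 8 markers, MARCO and CD163, and the interaction was positive in 7 of 8, with a median of 0.64. Within array sets 1 and 2 the interaction was 1.32 and 1.65 for MARCO. For every other marker of this list its sign differed between the sets, as for C1QA (-2.68 and 3.49) and CD163 (0.48 and -0.33). The mean over the 8 markers ranged over 9.45 to 11.49 in high gain-high intake steers and 9.52 to 11.37 in high gain-low intake steers, against 9.76 to 11.65 in low gain-high intake steers and 10.56 to 11.74 in low gain-low intake steers. Also called for the interaction were CD2 (-1.11), 1 of 7 markers of T and NK cells, and CNN1 (-1.32), 1 of 4 measured smooth muscle markers. Of all transcript clusters 2.81% were called for the interaction. The mean over the 7 T and NK cell markers ranged over 6.90 to 7.48 in high gain-high intake steers and 6.97 to 7.54 in high gain-low intake steers, against 7.30 to 8.51 in low gain-high intake steers and 7.15 to 7.36 in low gain-low intake steers. Their part in the GBE1 values was not tested.

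UGP2, which makes UDP-glucose, ranged over 14.95 to 16.04 in high gain-high intake steers and 14.65 to 16.86 in high gain-low intake steers, against 14.72 to 16.48 in low gain-high intake steers and 14.63 to 16.22 in low gain-low intake steers. As for PYGL, its mean was lower in array set 2 (15.02) than in set 1 (15.76), but the sets overlapped. Its gain effect was -0.11 (95% confidence interval -0.85 to 0.63). PGM1, which interconverts glucose 1-phosphate and glucose 6-phosphate and so serves both directions, ranged over 13.74 to 15.29 in high gain-high intake steers and 14.31 to 15.06 in high gain-low intake steers, against 13.90 to 14.84 in low gain-high intake steers and 14.03 to 14.97 in low gain-low intake steers. Its gain effect was 0.14 (95% confidence interval -0.32 to 0.60).

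**Figure D3:**
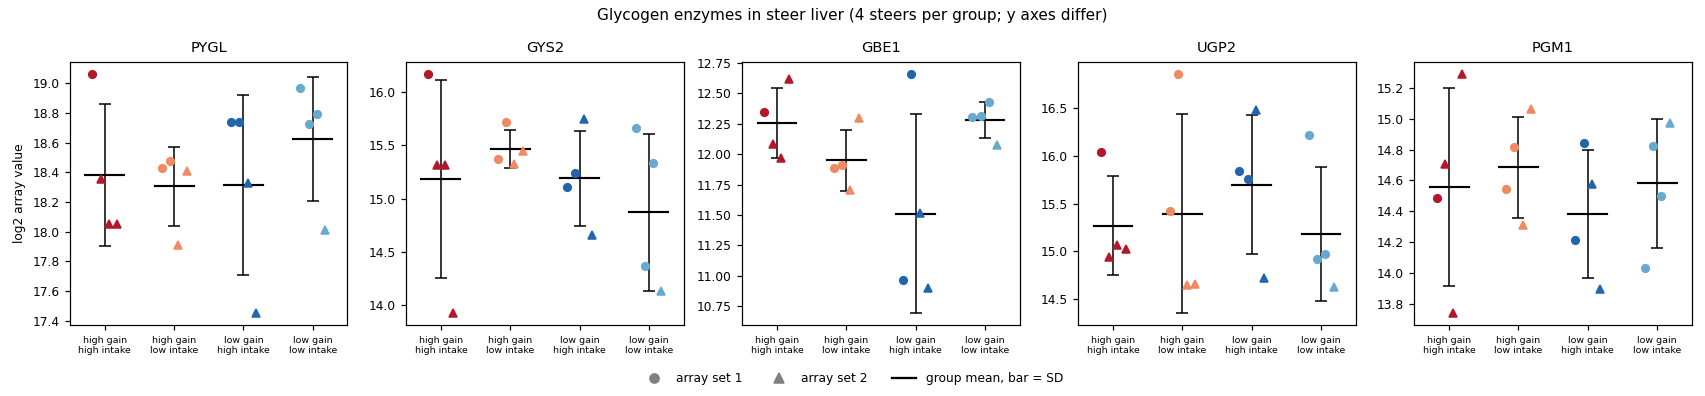
Log2 array values of the 5 enzyme genes in each steer, by phenotype group, with the mean and SD of the 4 steers and the array set as the symbol; the y axes differ. For GBE1, 3 low gain-high intake steers lie at 10.90 to 11.51, below all other steers, and for PYGL every triangle (set 2) lies below every circle (set 1).

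For the 8 genes other than PHKA1, all 48 pairs of groups were compared by exact permutation. The lowest p, 0.0286, was that of PHKB between high gain-high intake and the other high gain group, and 0.0286 is the smallest that 4 steers against 4 allow. Next came GBE1 with 0.0571 for high gain-low intake against low gain-low intake, and no p adjusted over the 48 pairs (Benjamini-Hochberg) was below 0.949. The 24 pairs next to each other in the order of means, which are the closest by choice, had p of 0.143 or more. These p-values set each difference of means against those from exchanging the steers. With 1 array per steer, variation between steers and between arrays cannot be told apart.

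**Figure D4:**
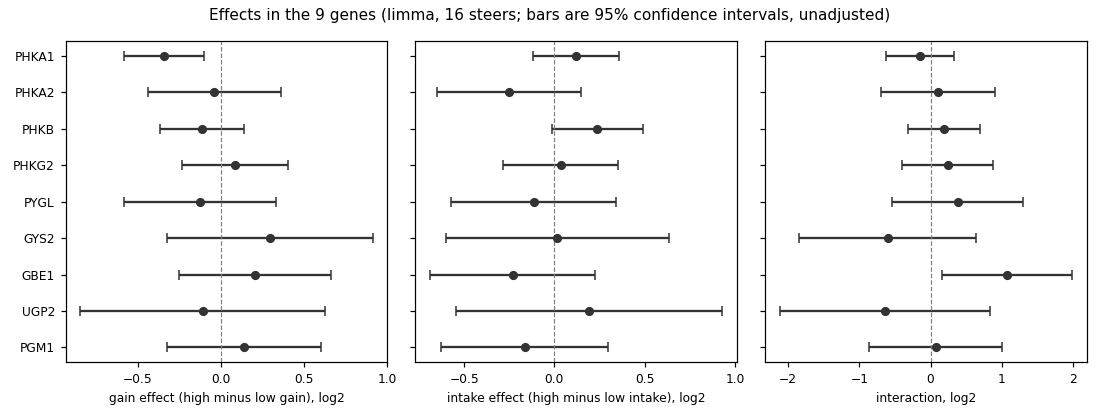
Gain effect, intake effect and interaction (log2 differences, x axes) of the 9 genes, as points with unadjusted 95% confidence intervals from limma over 16 steers. The intervals leave out 0 for the gain effect of PHKA1 (-0.58 to -0.10) and the interaction of GBE1 (0.16 to 1.99) and include it elsewhere.

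Among themselves, the 9 genes formed 36 pairs, of which 21 had a positive and 15 a negative r over the 16 steers. The highest was PHKA2 with PGM1 at r = 0.748 (permutation p = 0.0007, 0.0252 after adjustment over the 36 pairs). Spearman's rho for this pair was 0.662 (permutation p = 0.00642, 0.231 after adjustment). Without the 2 steers farthest from the PHKA2 median r was 0.513, and it was 0.762 after centring within phenotype groups. The relation lay mostly in array set 2 (r = 0.965), with r = 0.295 in set 1. In set 2, high gain-high intake steer 4 had the highest values of both genes and high gain-high intake steer 3 and low gain-high intake steer 4 the lowest. Quantile normalization raised PGM1 in the last 2 steers, from 13.74 to 14.27 and from 13.90 to 14.54, and r of this pair was not computed on those values. PHKA2 also had r = 0.576 with GBE1 and 0.544 with PHKG2 (permutation p = 0.0192 and 0.0311, adjusted 0.186 and 0.187). The rho values were 0.526 and 0.376 (permutation p = 0.0381 and 0.151, adjusted 0.260 and 0.425). Within array sets 1 and 2, r was 0.0876 and 0.827 for GBE1 and 0.110 and 0.733 for PHKG2, and without the 2 farthest steers it was 0.389 and 0.397.

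The wider pathway was described with 5 lists of 54 symbols that include the 9 genes, of which 45 had a transcript cluster with that symbol alone, 49 clusters in all. The other symbols were not analysed here. Over the 4 groups 1 of the 49 was called (PHKA1). For gain 1 was called, PHKA1 in the negative direction, beside 2.29% of all clusters in that direction. For intake 2 were called, 1 positive and 1 negative, beside 1.23% and 1.64% of all clusters. For the interaction 4 were called, 3 positive and 1 negative, beside 1.15% and 1.66%. No adjusted p of the 49 passed in limma (0 clusters). The gain effect was negative in 34 of 49, with a median of -0.10 beside -0.04 over all transcript clusters, of which 58.3% were negative. Not all of these signs held within both array sets.

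In glucose release, SLC37A4, which carries glucose 6-phosphate into the endoplasmic reticulum for its hydrolysis, was 12.76 ± 0.18 and 13.01 ± 0.53 with high intake at high and low gain, against 12.32 ± 0.22 and 12.57 ± 0.38 with low intake at high and low gain (SD, n = 4). Its intake effect was 0.45 (standard error 0.18, unadjusted p = 0.0220 in limma), and 0.36 and 0.43 within array sets 1 and 2. The unadjusted p exceeded 0.05 without low gain-low intake steer 1 (0.0534) or low gain-high intake steer 4 (0.0502). G6PC3, the widely expressed glucose 6-phosphatase, had an interaction of 0.71 (standard error 0.30, unadjusted p = 0.0295 in limma), 1.08 within set 1 and 0.16 within set 2. For G6PC3 it exceeded 0.05, at 0.0620 to 0.0691, without high gain-high intake steer 4, high gain-low intake steer 2, low gain-high intake steer 2 or low gain-low intake steer 2, and was 0.0658 after quantile normalization. SLC2A2, the liver glucose transporter, had the largest gain effect of this list, 0.53 (standard error 0.41, unadjusted p = 0.218 in limma).

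In the synthesis list, PGM2L1, a relative of phosphoglucomutase that makes glucose 1,6-bisphosphate, had an intake effect of -0.42 (standard error 0.14, unadjusted p = 0.00994 in limma), -0.09 within array set 1 and -0.55 within set 2. The largest gain effect of the list was that of GYS2, given above. In the breakdown list the largest was that of GAA, the lysosomal glucosidase, at -0.17 (standard error 0.18, unadjusted p = 0.353 in limma), and 0 of the 4 measured genes of that list were called in any comparison.

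In the control list, PRKACB, a catalytic subunit of the cyclic AMP-dependent kinase that phosphorylates phosphorylase kinase, had an interaction of 1.12 (standard error 0.49, unadjusted p = 0.0373 in limma), 0.43 within array set 1 and 2.27 within set 2. Its unadjusted p exceeded 0.05, at 0.0526 to 0.0862, without any 1 of 8 steers, namely steer 4 of each group, high gain-high intake steer 1, high gain-low intake steer 3, low gain-high intake steer 3 and low gain-low intake steer 2. It was 0.0569 in the ordinary t and 0.100 with array weights. ADRA1B, an adrenergic receptor that acts through calcium, had an interaction of -0.62 (standard error 0.23, unadjusted p = 0.0161 in limma), -1.04 and -0.21 within the sets. PRKAR2A, a regulatory subunit of the same kinase, had the largest gain effect of the list, -0.41 (standard error 0.20, unadjusted p = 0.0602 in limma), and was called without high gain-high intake steer 1 (0.0453), low gain-low intake steer 1 (0.0478), low gain-high intake steer 3 (0.0485) or low gain-high intake steer 4 (0.00641). PRKAR2A was also called after quantile normalization (0.0232), beside 4.14% of all clusters, and with array weights (0.00948), beside 8.38%. The gain effect was negative in 18 of the 23 clusters of this list, beside 58.3% of all clusters, with a median of -0.15. Within array sets 1 and 2 it was -0.51 and -0.13 for PRKAR2A. PRKACA (-0.37 and 0.39) and PRKAG1 (-0.37 and 0.38) were among the clusters with opposite signs in the sets, while PRKAA1 (-0.19 and -0.22) kept its sign.

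**Figure D5:**
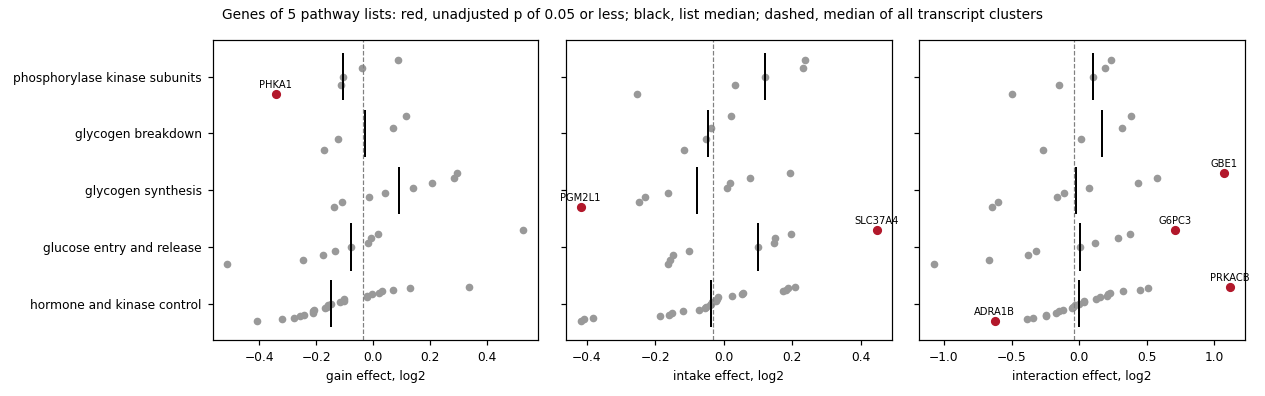
Gain effect, intake effect and interaction (log2 differences, x axes) of the 49 transcript clusters of the 5 pathway lists, 1 point each, red where called; the black bar is the list median and the dashed line the median of all transcript clusters. PHKA1 is the single red point for gain, at -0.34, and GBE1 and PRKACB lie farthest to the right for the interaction, at 1.07 and 1.12.

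Markers of other cell types were set beside PHKA1. Of 7 measured skeletal muscle markers, 0 were called in any comparison, and over the 7 markers and all arrays the percentile ranged from 2.77 to 60.6, the highest for MB. The mean over these markers ranged over 5.97 to 6.23 in high gain-high intake steers and 6.06 to 6.37 in high gain-low intake steers, against 6.195 to 6.22 in low gain-high intake steers and 5.88 to 6.35 in low gain-low intake steers. Of 4 measured smooth muscle markers, 2 (TAGLN and CNN1) were called for gain, with gain effects of 0.79 and 0.63, beside 3.48% of all transcript clusters. Their mean ranged over 8.53 to 9.11 in high gain-high intake steers and 8.31 to 9.59 in high gain-low intake steers, against 7.74 to 8.81 in low gain-high intake steers and 7.99 to 8.69 in low gain-low intake steers. Of the 8 Kupffer cell and macrophage markers, 6 had a negative gain effect (median -0.41), and the 1 called for gain, CD163, had a positive one (0.57). Within array sets 1 and 2 the gain effect changed sign for CD68 (-1.19 and 0.44) and CSF1R (-0.89 and 0.13). It was negative in both sets for C1QA, C1QB, C1QC and VSIG4. No marker of hepatocytes, cholangiocytes, endothelium, lymphocytes, stellate cells or red blood cells was called for gain. Their part in the PHKA1 values was not tested.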

How the data were processed

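Total liver RNA of 16 steers was hybridised to Affymetrix bovine gene arrays, 1 per steer. The authors deposited log2 values per transcript cluster, which they had made in Affymetrix Expression Console (GC count normalization, Signal Space Transformation, Robust Multichip Analysis). The submitters' notes name Transcriptome Analysis Console too. Versions of both, and the build, were not given in the sources used here. Of 26773 transcript clusters, 18790 carried 1 gene symbol in the array annotation, 385 carried several and 7598 had no symbol. All 9 symbols matched RefSeq through their gene IDs.

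Using limma 3.58.1 in R 4.3.3, a model of 4 group means was fitted to the deposited values of all clusters. The moderated F and the contrasts for gain, intake and interaction were adjusted by Benjamini-Hochberg over all clusters, and an unadjusted p of 0.05, the threshold of the study's methods, was used to count calls. Exact permutation tests exchanged steers, with 12870 choices for 8 against 8 and 70 for 4 against 4. Correlations used 100000 permutations. All tests were two-sided. The limma step was run on simulated data with independent noise, no array sets and gain effects larger than that of PHKA1. It therefore does not bear on the array sets or on effects as small as those described here. The number of arrays limits the precision.

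Alternatives were the ordinary F, as in the study's one-way ANOVA, ordinary t for the contrasts, quantile normalization, median subtraction, leaving out clusters below the median level, a block for the array set, array weights and leaving out each steer. Harvest days were not used, since the labels do not give them. The genes, the lists and the array sets were chosen with earlier results of these data known. Genes named from the pathway lists were those called in any comparison and the one with the largest gain effect of each list. The 5 genes most like PHKA1 had the highest r after centring within array sets.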

Additional observations from a re-analysis of the deposited data

Results flagged for a closer look

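A single steer stood apart from the other 3 of its group in 3 of 36 combinations of gene and group, where a chance rate of 1 in 20 gives 1.8. High gain-low intake steer 3 was low for PHKA2, at 8.66 with the next steer at 9.06, and low for PYGL, at 17.9 with the next at 18.4. High gain-high intake steer 1 was high for UGP2, at 16.0 with the next at 15.1. No other steer of that group lay in array set 1, whose UGP2 mean was the higher one.

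The intake difference depended on gain, by limma before adjustment, for 4 of the 49 transcript clusters of glycogen metabolism and its control, beside 2.81% of all clusters. The interaction was 1.07 for GBE1, 0.712 for G6PC3, 1.12 for PRKACB and -0.62 for ADRA1B, all with an adjusted p of 1.00.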

How the results depend on the processing

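The gain effect of PHKA1 stayed negative and called under all 6 other settings and in all 16 fits without 1 steer (-0.39 to -0.28). PHKA1 was chosen with its difference in these same arrays known, so that these refits are a description and no added support. Its adjusted p for gain in limma was 0.585 with array weights and 0.927 with a block for the array set. The number of the 9 genes called over the 4 groups was 0 instead of 1 after median subtraction and among clusters at or above the median, and 0 to 1 without 1 steer. For intake it was 1 instead of 0 in the ordinary t (PHKB). Without 1 steer the numbers were 1 to 2 for gain, 0 to 1 for intake and 0 to 1 for the interaction. The number of genes whose r with PHKA1 had a permutation p of at most 0.05 was 1 instead of 0 after quantile normalization (PHKB, r = 0.533) and 0 to 1 without 1 steer. The cause was not tested.

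Some effects that were not called had the other sign. PHKA2 had a gain effect of 0.0071 after quantile normalization, 0.0034 after median subtraction and 0.014 with a block for the array set (-0.17 to 0.047 without 1 steer), and an interaction of -0.0078 with array weights (-0.15 to 0.28). With the block, the gain effect was 0.049 for PYGL and 0.11 for UGP2 (-0.35 to 0.063 without 1 steer for UGP2). The intake effect of PYGL was 0.11 after quantile normalization and 0.058 with the block (-0.23 to 0.028 without 1 steer), and that of GYS2 -0.10 with array weights (-0.15 to 0.23). The interaction of PGM1 was -0.053 after quantile normalization and -0.055 with array weights (-0.17 to 0.34 without 1 steer). For PHKG2 the gain effect was -0.0098 to 0.13 and the intake effect -0.061 to 0.092 without 1 steer. The r with PHKA1 was -0.156 for PYGL and -0.0132 for GYS2 after median subtraction, and -0.0941 for PYGL after centring within array sets. Without 1 steer it was -0.0013 to 0.461 for PYGL and -0.256 to 0.0948 for PHKA2.

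No paired analysis was possible because the labels give the steers of different groups no shared number. With 4 arrays per group, the intervals of PHKA2, PHKB, PYGL and UGP2 hold a gain effect of the size and sign of that of PHKA1, and those of PHKG2, GYS2, GBE1 and PGM1 have lower bounds above it but hold positive effects of that size. Signals are relative to all transcript clusters, and protein and glycogen were not measured on the arrays.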
